A study of Homo sapiens with 30 samples.

Results

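The BCL2 family of apoptosis regulators was followed through 10 genes: BCL2, MCL1, BCL2L1, BCL2A1, BCL2L11, PMAIP1, BBC3, BID, BAX and BAK1. Each gene was taken with every probe that the array annotation assigns to it, which gave 22 of the 47231 probes on the array. No measured value entered this choice of probes, while the genes were chosen with earlier results of these data known. Expression had been measured on Illumina human bead arrays in TMD8 and U2932, established human lines of activated B cell-like diffuse large B cell lymphoma. TMD8 cells had been treated with YK-S for 8 h, YK-S for 4 h, YK-R for 8 h or YK-R for 4 h. U2932 cells had been treated with YK-S, YK-R or DMSO, the solvent control, each for 8 h and for 4 h. Each of the 10 groups held 3 arrays, 30 arrays in all, and TMD8 had no DMSO group. YK-4-279 is a small molecule that blocks ETS transcription factors, and YK-S and YK-R are its mirror-image forms (enantiomers). The labels give neither a dose nor separate cultures, so p-values measure the spread between these arrays, which may be technical. Each line is a single source, so a difference between the lines rests on a pair of lines, whatever the number of arrays.

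The family sets the threshold for apoptosis at the mitochondrial outer membrane. BCL2, MCL1, BCL2L1 (which encodes BCL-XL) and BCL2A1 (BFL-1) hold BAX and BAK1 in check, and BAX and BAK1 open the membrane to release cytochrome c. The BH3-only proteins BCL2L11 (BIM), PMAIP1 (NOXA), BBC3 (PUMA) and BID bind the protective members and free or activate BAX and BAK1. NOXA binds mainly MCL1 and BFL-1, while BIM and PUMA bind all the protective members. In diffuse large B cell lymphoma BCL2 is often overexpressed, through gain or translocation of its locus, and NF-kB activity raises BCL2A1 and BCL2L1.

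The stretches of 250 bases before the transcription start were read from the RefSeq promoter table (GRCh38.p14), which held 9 of the 10 genes in 14 windows. MCL1 had no entry. ETS factors bind a core of GGAA, and the longer core GGAAGT was searched on both strands, a copy on the opposite strand reading ACTTCC. It was present in 6847 of all 35116 windows of that length (19.5%), and in 2 of the 14 member windows, those of PMAIP1 and BCL2A1. The PMAIP1 window held 3 copies, whose first bases lie 249, 152 and 46 bases before the start, and the BCL2A1 window held 1 copy, 177 bases before it. The 8-base form CCGGAAGT was in no member window, against 3.42% of all windows. The sequences below are given for PMAIP1 and BCL2A1 because they hold the core. Those of BCL2L11 and BCL2 are given because these genes, with PMAIP1, had the member probes with the largest differences between the lines. For BCL2 that probe was ILMN_2363250. Capitals mark GGAAGT or ACTTCC, and each stretch is written 5′ to 3′ on its gene's strand.
PMAIP1, chr18:59899746-59899995, plus strand: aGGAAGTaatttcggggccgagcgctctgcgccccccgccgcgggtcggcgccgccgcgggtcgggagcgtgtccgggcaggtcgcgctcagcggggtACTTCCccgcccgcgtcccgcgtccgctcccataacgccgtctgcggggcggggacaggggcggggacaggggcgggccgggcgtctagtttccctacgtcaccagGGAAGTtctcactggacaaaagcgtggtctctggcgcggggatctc
BCL2A1, chr15:79971197-79971446, minus strand: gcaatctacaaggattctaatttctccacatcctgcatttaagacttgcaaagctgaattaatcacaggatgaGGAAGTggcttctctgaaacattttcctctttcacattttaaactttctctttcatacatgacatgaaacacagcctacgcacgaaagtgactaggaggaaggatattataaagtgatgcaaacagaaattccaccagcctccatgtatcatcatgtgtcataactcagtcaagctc
BCL2L11, chr2:111120664-111120913, plus strand: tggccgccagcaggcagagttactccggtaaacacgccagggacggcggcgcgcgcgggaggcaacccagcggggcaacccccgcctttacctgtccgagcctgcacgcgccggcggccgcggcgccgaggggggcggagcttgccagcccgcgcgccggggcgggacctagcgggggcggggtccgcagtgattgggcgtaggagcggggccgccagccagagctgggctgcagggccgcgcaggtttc
BCL2, chr18:63319770-63320019, minus strand: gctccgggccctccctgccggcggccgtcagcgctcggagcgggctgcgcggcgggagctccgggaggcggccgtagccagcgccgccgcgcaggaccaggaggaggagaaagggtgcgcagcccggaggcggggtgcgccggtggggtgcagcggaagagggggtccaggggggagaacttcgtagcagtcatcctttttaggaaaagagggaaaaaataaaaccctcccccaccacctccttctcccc
A match of letters is a description of the window, and nothing in the arrays bears on binding there.

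TMD8 arrays had mean signals of 419.6 to 494.1 intensity units, with 46.6% to 56.1% of probes above background. U2932 arrays had mean signals of 85.4 to 340.9 and 25.2% to 50.5% of probes above background, and 8 of the 18 had a mean signal under 200. All 3 YK-R arrays and all 3 DMSO arrays of U2932 at 4 h were among these dim arrays, with 1 YK-S array at each time. The line, the brightness of its arrays and any batch cannot be told apart. The deposited signal table and the deposited log2 table carried the same name for the same array in 12 of 12 TMD8 columns and in 0 of 18 U2932 columns. There, the values of each log2 column matched a differently named signal column (rank correlation at least 0.999996) and not its namesake (0.597 to 0.9), and 13 of the 18 names pointed to another treatment or time. Results within U2932 are therefore given by the signal table's naming and then by that of the log2 table. As markers of a B cell, MS4A1, CD79A, CD79B and CD22 were above background on every array of both lines, and PAX5 was on no U2932 array. Of 5 markers of the activated B cell-like type, 5 were above background on every TMD8 array and 3 on every U2932 array (IRF4, BATF and TNFRSF13B), and ENTPD1 was on no U2932 array. Of 4 stromal and epithelial markers, EPCAM was above background on every U2932 array, with 4.78 ± 0.22 log2 units in TMD8 and 9.21 ± 0.29 in U2932. The summed signal of those 4 markers ran from 443.7 to 531.5 in TMD8 and from 312.8 to 1259 in U2932. Of 4 T cell markers none was above background on every array of either line (CD3D on no TMD8 array, CD3G on no U2932 array), with summed signals of 426.3 to 501.4 in TMD8 and 247.4 to 406.5 in U2932. Of 4 myeloid markers CD14 was above background on every TMD8 array and on 16 of 18 U2932 arrays, with 4.92 ± 0.13 log2 units in TMD8 and 5.91 ± 0.49 in U2932. The summed signals of those 4 markers were 431.2 to 489.3 in TMD8 and 258.7 to 465.6 in U2932. The part of these markers in the results was not tested.

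Of the 22 probes, 20 in TMD8 and 21 in U2932 were detected on all arrays of at least 1 group and entered the fits, with all 10 genes represented in each. BAX probe ILMN_2258383 was above background on 3 of 12 TMD8 arrays and 2 of 18 U2932 arrays and entered no fit. BCL2 probe ILMN_1701120 was above background on 3 TMD8 arrays and 16 U2932 arrays and was not tested within TMD8. A probe was called when its adjusted p was under 0.05 in limma, with Benjamini-Hochberg adjustment over every probe tested. Where levels of both lines are compared, they are log2 signals normalised over all 30 arrays. Levels of different probes are not compared with each other.

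The family differed most between the lines. With the 12 TMD8 arrays set against the 18 U2932 arrays, a comparison that does not depend on the disputed names, 17 of 21 member probes were called, 9 higher and 8 lower in TMD8. Over all 25382 probes 55.7% were called, 31.3% higher and 24.5% lower, so a count of this kind is frequent between these lines and is no property of the family. The median log2 difference was 0.25 over the member probes and 0.02 over all probes. The U2932 arrays include DMSO arrays and the TMD8 arrays do not. BCL2, MCL1 and PMAIP1 were lower in TMD8 at every tested probe, and BCL2L11 was higher at all 3 of its probes. No TMD8 array overlapped a U2932 array at 3 probes of BCL2, both of MCL1, all 3 of BCL2L11 and both of PMAIP1. The share of all probes that separate the lines in this way was not counted, so the separation is not shown to be particular to these genes.

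Among the protective members, BCL2 was lower in TMD8. Its probe ILMN_2246956 ran from 9.07 to 10.03 with a median of 9.51 log2 units over the TMD8 arrays, and from 10.88 to 12.13 with a median of 11.57 over the U2932 arrays. Every TMD8 array thus lay below every U2932 array after normalisation, while the unnormalised signals overlapped, with 1322.2 to 2314.6 intensity units in TMD8 and 313.2 to 5066.9 in U2932. The fitted difference was -2.13 ± 0.12 log2 (SE, adjusted p = 2.3e-17, limma), a 4.38-fold lower level in TMD8. ILMN_1801119, annotated to the same transcript, gave -2.23 ± 0.10 (adjusted p = 1.2e-19, limma). ILMN_2363250, annotated to another BCL2 transcript, gave -2.50 ± 0.13 (adjusted p = 1.1e-17, limma). The remaining BCL2 probe, ILMN_1701120, was called lower too (adjusted p = 7.6e-07, limma), but with 3 of 12 TMD8 arrays above background its fitted -1.49 ± 0.23 is no exact size. It was above background on no TMD8 array under YK-S at 8 h or under YK-R at 4 h. Under YK-R at 4 h it was called lower in TMD8 than in U2932, with a bound of at least 2.9-fold (adjusted p = 0.0079, limma). Under YK-S at 8 h the bound was 1.87-fold lower, but the probe was not called (adjusted p = 0.12, limma). Such a bound sets the mean of the brighter group against the lowest signal that is clearly above background on each array of the dim group, or the probe's own signal where that is higher. It allows for background and not for the spread between arrays, so it does not replace the test. Within each line the group means of ILMN_2246956 lay close together, between 9.24 ± 0.12 (YK-S, 4 h) and 9.61 ± 0.42 (YK-R, 8 h) in TMD8, and between 11.34 ± 0.42 (DMSO, 4 h) and 12.01 ± 0.11 (YK-R, 4 h) in U2932 (SD, n = 3 each).

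MCL1, the short-lived protective protein that NOXA antagonises, was also lower in TMD8. ILMN_1803988 ran from 8.70 to 9.35 with a median of 9.06 log2 units in TMD8 and from 10.79 to 11.67 with a median of 11.37 in U2932. The lines did not overlap, and the difference was -2.31 ± 0.08 log2 (SE, adjusted p = 9.4e-23, limma), a 4.96-fold lower level in TMD8. ILMN_1756806 gave -1.78 ± 0.12 (adjusted p = 3.9e-15, limma). Before normalisation the signals of ILMN_1803988 overlapped, with 971.9 to 1587 intensity units in TMD8 and 278.4 to 4319.5 in U2932, and those of ILMN_1756806 overlapped without the dim arrays as well. The group means of ILMN_1803988 spanned 8.88 ± 0.25 (YK-R, 4 h) to 9.16 ± 0.17 (YK-S, 8 h) in TMD8 and 11.26 ± 0.09 (YK-R, 4 h) to 11.43 ± 0.14 (YK-R, 8 h) in U2932, with DMSO at 4 h at 11.27 ± 0.44 (SD, n = 3 each). These 10 groups thus formed a lower set in TMD8 and a higher set in U2932 with little spread inside each. The size of these differences depends on the scaling. Where each array was scaled to its median in place of its whole distribution, the median of all probes moved to 0.71 log2 higher in TMD8, and calls turned from 7944 higher and 6206 lower to 16364 higher and 2059 lower. MCL1 stayed lower in TMD8, with ILMN_1803988 at -0.81 (adjusted p = 0.037, limma), while ILMN_1756806 at -0.23 was no longer called (adjusted p = 0.54, limma). Against the same shift, the BCL2 probes stood at -0.67 to -1.45 and the PMAIP1 probes at -0.87 and -1.71.

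BCL2L1 and BCL2A1, the protective members that NF-kB induces, were not called between the lines. BCL2L1 probe ILMN_1654118 ran from 8.12 to 9.95 with a median of 8.88 log2 units in TMD8 and from 8.19 to 10.28 with a median of 8.98 in U2932. The lines overlapped almost fully, with a difference of -0.07 (95% interval -0.47 to 0.33, adjusted p = 0.78, limma). Its other probe, ILMN_1742410, gave 0.26 (-0.15 to 0.67, adjusted p = 0.27, limma). BCL2A1 probe ILMN_1769229 ran from 6.47 to 8.04 with a median of 6.86 in TMD8 and from 5.39 to 8.31 with a median of 6.62 in U2932. It gave 0.25 (-0.23 to 0.74, adjusted p = 0.37, limma). These intervals leave room for differences of about the size seen for BID, but not for that of BCL2 or MCL1. Without the dim U2932 arrays BCL2A1 was called higher in TMD8, by 0.51 log2 (adjusted p = 0.014, limma). With median scaling all 3 probes were called higher in TMD8, by 1.5, 1.27 and 1.66 log2, so their place depends on the scaling and, for BCL2A1, on the dim arrays.

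**Figure D1:**
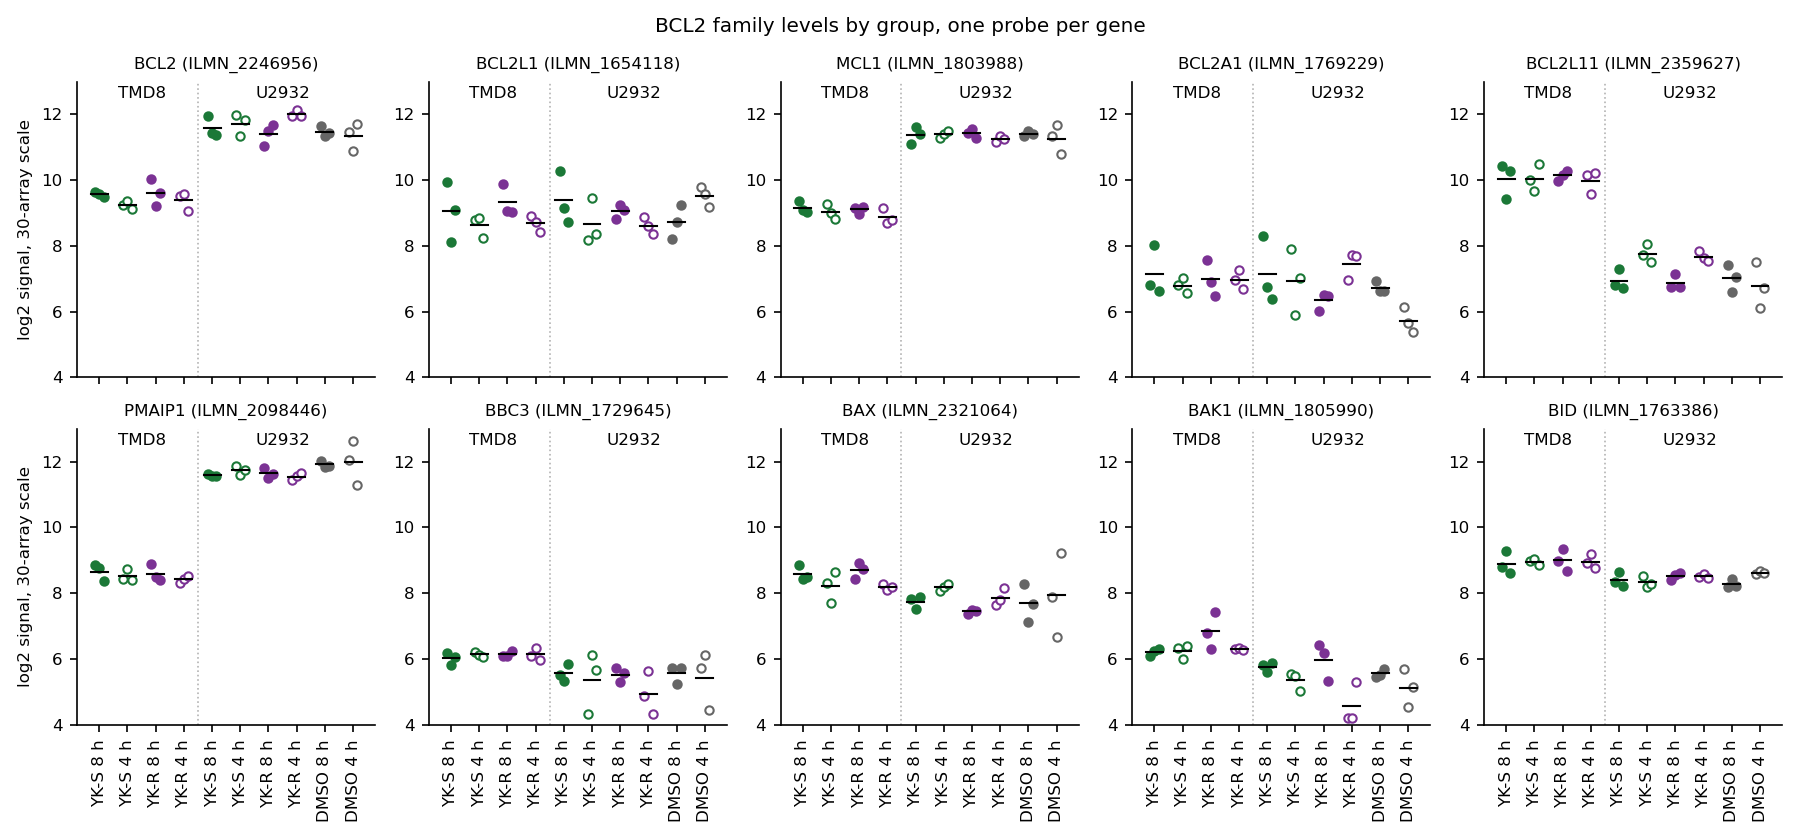
Log2 signal on the 30-array scale of 1 probe per gene (the probe with the highest mean level) in the 10 groups, TMD8 left and U2932 right of the dotted line. Points are arrays (3 per group), filled at 8 h and open at 4 h, and bars are group means. BCL2, MCL1 and PMAIP1 are lower and BCL2L11 is higher on every TMD8 array than on every U2932 array.

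Among the BH3-only members, BCL2L11 was higher in TMD8. ILMN_2359627 ran from 9.41 to 10.48 with a median of 10.16 log2 units in TMD8 and from 6.10 to 8.07 with a median of 7.22 in U2932. No array overlapped, and the difference was 2.88 ± 0.16 log2 (SE, adjusted p = 5.7e-17, limma), a 7.35-fold higher level in TMD8. The size moved with the processing, to 4.33 log2 with median scaling and 2.33 without background correction, and the call did not. The probes ILMN_1774997 (3.0 ± 0.19, adjusted p = 1.7e-15, limma) and ILMN_1766541 (2.30 ± 0.21, adjusted p = 1.8e-11, limma) pointed the same way. In unnormalised signal, ILMN_2359627 ran from 1725.1 to 3091.6 intensity units in TMD8 and from 70.5 to 390.7 in U2932. The group means of this probe lay between 9.98 ± 0.35 (YK-R, 4 h) and 10.14 ± 0.15 (YK-R, 8 h) in TMD8, and between 6.77 ± 0.70 (DMSO, 4 h) and 7.76 ± 0.29 (YK-S, 4 h) in U2932 (SD, n = 3 each).

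PMAIP1 was lower in TMD8 and gave the largest difference below 0 among the member probes. ILMN_2098446 ran from 8.32 to 8.88 with a median of 8.45 log2 units in TMD8 and from 11.29 to 12.62 with a median of 11.65 in U2932. On this normalised scale the gap between the lines was wider than the range within either, while the unnormalised signals overlapped, with 809.1 to 1170 intensity units in TMD8 and 367.4 to 5578.4 in U2932. The fitted difference was -3.19 ± 0.10 log2 (SE, adjusted p = 2.5e-24, limma), a 9.12-fold lower level in TMD8. ILMN_1689525 gave -2.25 ± 0.22 (adjusted p = 1.2e-10, limma), and its unnormalised signals overlapped without the dim arrays too. The group means of ILMN_2098446 lay between 8.42 ± 0.10 (YK-R, 4 h) and 8.66 ± 0.25 (YK-S, 8 h) in TMD8, and between 11.55 ± 0.11 (YK-R, 4 h) and 11.99 ± 0.66 (DMSO, 4 h) in U2932 (SD, n = 3 each). BCL2L11 and PMAIP1, both BH3-only genes, thus stood on opposite sides of the comparison.

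BBC3 (ILMN_1729645), a p53 target, was higher in TMD8 by 0.71 ± 0.16 log2 (SE, adjusted p = 0.00026, limma), with 5.80 to 6.34 log2 units in TMD8 and 4.31 to 6.12 in U2932. The lines overlapped, and the probe was above background on 14 of 18 U2932 arrays. BID, which caspase-8 cleaves to its active form, was higher in TMD8 at ILMN_1763386 (0.50 ± 0.08, adjusted p = 2.2e-06, limma) and at ILMN_2372413 (0.54 ± 0.15, adjusted p = 0.0023, limma). The remaining BID probe, ILMN_2259495, gave -0.05 (95% interval -0.34 to 0.25, adjusted p = 0.80, limma), so the probes of this gene disagreed, and with median scaling it stood at 0.82. Under that scaling BBC3 stood at 1.58 and the other BID probes at 2.1 (ILMN_1763386) and 2.0 (ILMN_2372413), so their sizes are not settled.

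The effectors were higher in TMD8. BAX gave 0.61 ± 0.17 (adjusted p = 0.0024, limma) at ILMN_2321064 and 0.75 ± 0.14 (adjusted p = 2.6e-05, limma) at ILMN_1683300. BAK1 (ILMN_1805990) gave 1.01 ± 0.18 (adjusted p = 1.7e-05, limma), with 5.99 to 7.43 log2 units in TMD8 and 4.19 to 6.41 in U2932. The BAK1 probe was above background on 12 of 18 U2932 arrays and on none of the 3 YK-R arrays at 4 h, which were all dim. There TMD8 was called higher, with a bound of at least 1.82-fold (adjusted p = 6e-05, limma). The lines overlapped for both effectors. With median scaling the BAX probes stood at 2.17 (ILMN_2321064) and 1.66 (ILMN_1683300) and BAK1 at 1.93, so the sizes depend on the scaling.

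**Figure D2:**
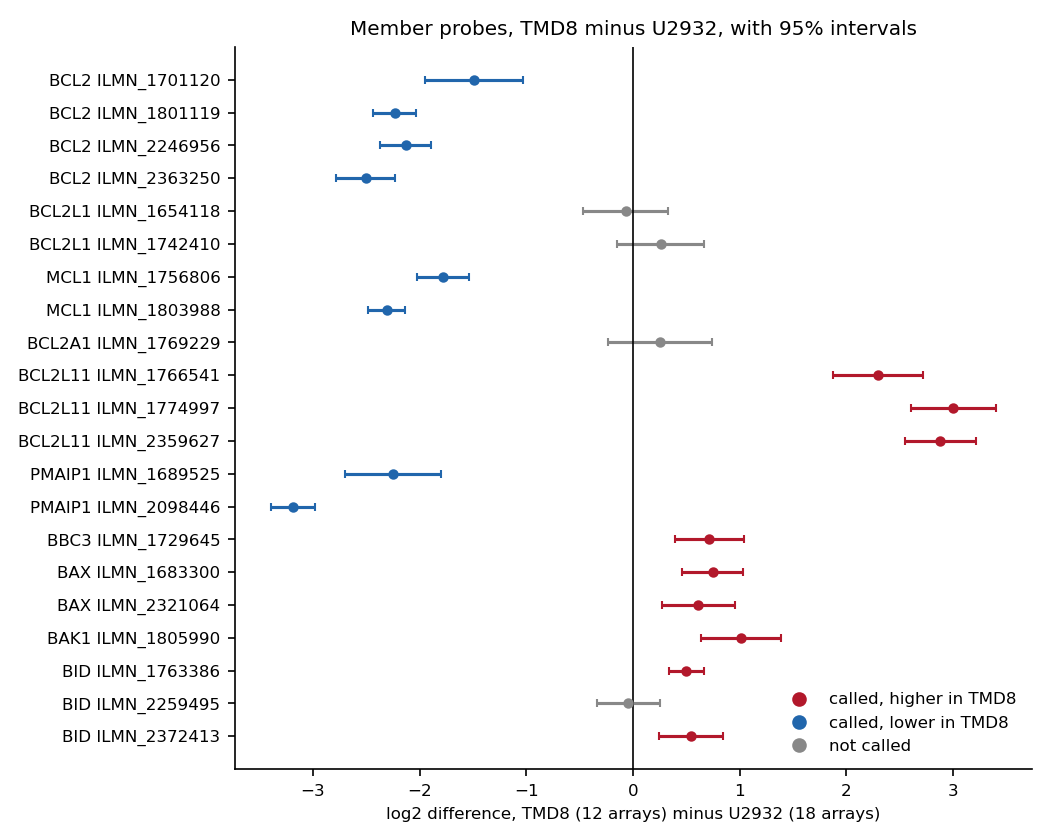
Log2 difference of each tested member probe, TMD8 minus U2932, over 12 and 18 arrays, with 95% intervals from limma. Red probes were called higher in TMD8, blue probes lower, and grey probes were not called; PMAIP1 ILMN_2098446 lies at -3.19 and BCL2L11 ILMN_1774997 at 3.0.

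Matched by treatment and time, the difference between the lines was found in each of 4 comparisons, which rest on the signal table's names for U2932. Under YK-S at 8 h, 10 of 21 member probes were called, 3 higher and 7 lower in TMD8, against 24.7% of all probes. Under YK-R at 8 h, 13 were called, 6 higher and 7 lower, against 27.8%. Under YK-S at 4 h, 13 were called, 5 higher and 8 lower, against 29.7%, and under YK-R at 4 h again 13, 5 higher and 8 lower, against 34.5%. Both PMAIP1 probes, both MCL1 probes and 3 BCL2 probes were lower in all 4, and the 3 BCL2L11 probes were higher in all 4. Over these comparisons PMAIP1 ILMN_2098446 stayed between -3.22 and -2.93 log2, MCL1 ILMN_1803988 between -2.38 and -2.21, and BCL2L11 ILMN_2359627 between 2.28 and 3.26. BAK1 was called higher in 3 of the 4, and BBC3, both BAX probes and BID ILMN_1763386 in 1 each. With median scaling, the median of all probes in the comparison under YK-R at 4 h moved to 1.31, and none of the 8 probes called lower there stayed called. Of these, 2 BCL2 and both MCL1 probes changed sign, and PMAIP1 stood at -0.42 (ILMN_2098446, adjusted p = 0.48, limma) and -0.18 (ILMN_1689525, adjusted p = 0.78, limma). In the other 3 comparisons under that scaling PMAIP1 ILMN_2098446 stayed called at -1.93 to -2.51, and MCL1 was called only under YK-R at 8 h, at ILMN_1803988 (-1.78, adjusted p = 0.014, limma). The difference between YK-S and YK-R was also compared between the lines, and no member probe was called at 8 h (0 of 21, unadjusted p under 0.05 for 0, 0% of all probes called) or at 4 h (0 of 21, unadjusted p under 0.05 for 0, 0% of all probes called).

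The enantiomers were compared in each line at each time, which gave 4 pairs, with p-values adjusted over all probes in each. No dose is labelled, so the times match and the doses are unknown. No member probe was called in any pair by limma. In TMD8 at 8 h, 0 of 20 probes were called (2 at unadjusted p under 0.05, as were 6.85% of all probes), against 0.0464% of all probes (11 of 23702), 0.0422% higher and 0.00422% lower. In TMD8 at 4 h, 0 of 20 were called (1 at unadjusted p under 0.05, as were 2.1% of all probes), against 0% of all probes. In U2932, 0 of 21 were called at 8 h and 0 of 21 at 4 h, with 0 at unadjusted p under 0.05 at either time and 0% of all probes called. Under the log2 table's names none was called in U2932 at either time, and 9 of the 21 differences at 8 h and 14 of the 21 at 4 h had the opposite sign.

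BAK1 had the lowest adjusted p among members in TMD8 at 8 h. Its signals were 223.4, 230.2 and 240.2 intensity units under YK-S and 319.3, 232.2 and 509.3 under YK-R. YK-R replicate 2 lay among the YK-S arrays and the other YK-R arrays lay above them, so the groups overlapped. The difference was -0.74 log2 (95% interval -1.30 to -0.18, adjusted p = 0.53, limma). Without YK-R replicate 2, the array that lay low, it was -1.05 ± 0.22 (adjusted p = 0.034, limma), with 446 of all probes called. BCL2 ILMN_2363250 gave 0.54 (0.05 to 1.02, adjusted p = 0.66, limma) at 8 h and -0.05 (-0.54 to 0.43, adjusted p = 1, limma) at 4 h. BAX ILMN_1683300 gave -0.06 (-0.52 to 0.40, adjusted p = 1, limma) at 8 h and -0.47 (-0.94 to -0.01, adjusted p = 1, limma) at 4 h.

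For the members that set the lines apart, the brightest probe of each gene was compared between the enantiomers in TMD8 at 8 h. There PMAIP1 ILMN_2098446 averaged 9.84 ± 0.25 under YK-S and 9.78 ± 0.25 under YK-R (log2 units on the TMD8 scale, SD, n = 3 each), a difference of 0.06 (95% interval -0.31 to 0.44). BCL2L11 ILMN_2359627 averaged 11.17 ± 0.53 under YK-S and 11.26 ± 0.14 under YK-R, a difference of -0.10 (-0.68 to 0.49). MCL1 ILMN_1803988 averaged 10.33 ± 0.16 under YK-S and 10.28 ± 0.10 under YK-R, a difference of 0.05 (-0.30 to 0.40). BCL2 ILMN_2246956 averaged 10.72 ± 0.08 under YK-S and 10.76 ± 0.40 under YK-R, a difference of -0.04 (-0.47 to 0.38). For these 4 probes the intervals exclude a change of 1 log2 unit in either direction. Among the other probes of these genes, the interval of BCL2 ILMN_2363250 given above excludes 0 and includes 1 log2 unit. PMAIP1 ILMN_1689525 gave 0.29 (-0.26 to 0.84), MCL1 ILMN_1756806 -0.29 (-0.80 to 0.22) and BCL2L11 ILMN_1774997 0.22 (-0.40 to 0.84). BCL2L1 had wide intervals, with -0.27 (-1.07 to 0.54) at ILMN_1654118 and -0.35 (-1.25 to 0.55) at ILMN_1742410. Over the member probes the distance from an estimate to its 95% bound had a median of 0.47 log2 in TMD8 and 0.57 in U2932. These intervals are not adjusted for the number of probes, so the adjusted calls can miss larger differences too. BAK1 in TMD8 at 8 h, at -0.74, was not called (adjusted p = 0.53, limma). In U2932 at 8 h the widest were PMAIP1 ILMN_1689525, 0.96 (-0.20 to 2.11), and BCL2A1, 0.75 (-0.12 to 1.62). Under the log2 table's names they were 0.72 and 0.46. A p that misses the threshold does not show that the enantiomers act alike. Whether the difference between them changed from 4 h to 8 h was tested too, and 0 member probes were called in TMD8 (0 at unadjusted p under 0.05, 0% of all probes) and 0 in U2932 (0 at unadjusted p under 0.05, 0% of all probes).

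**Figure D3:**
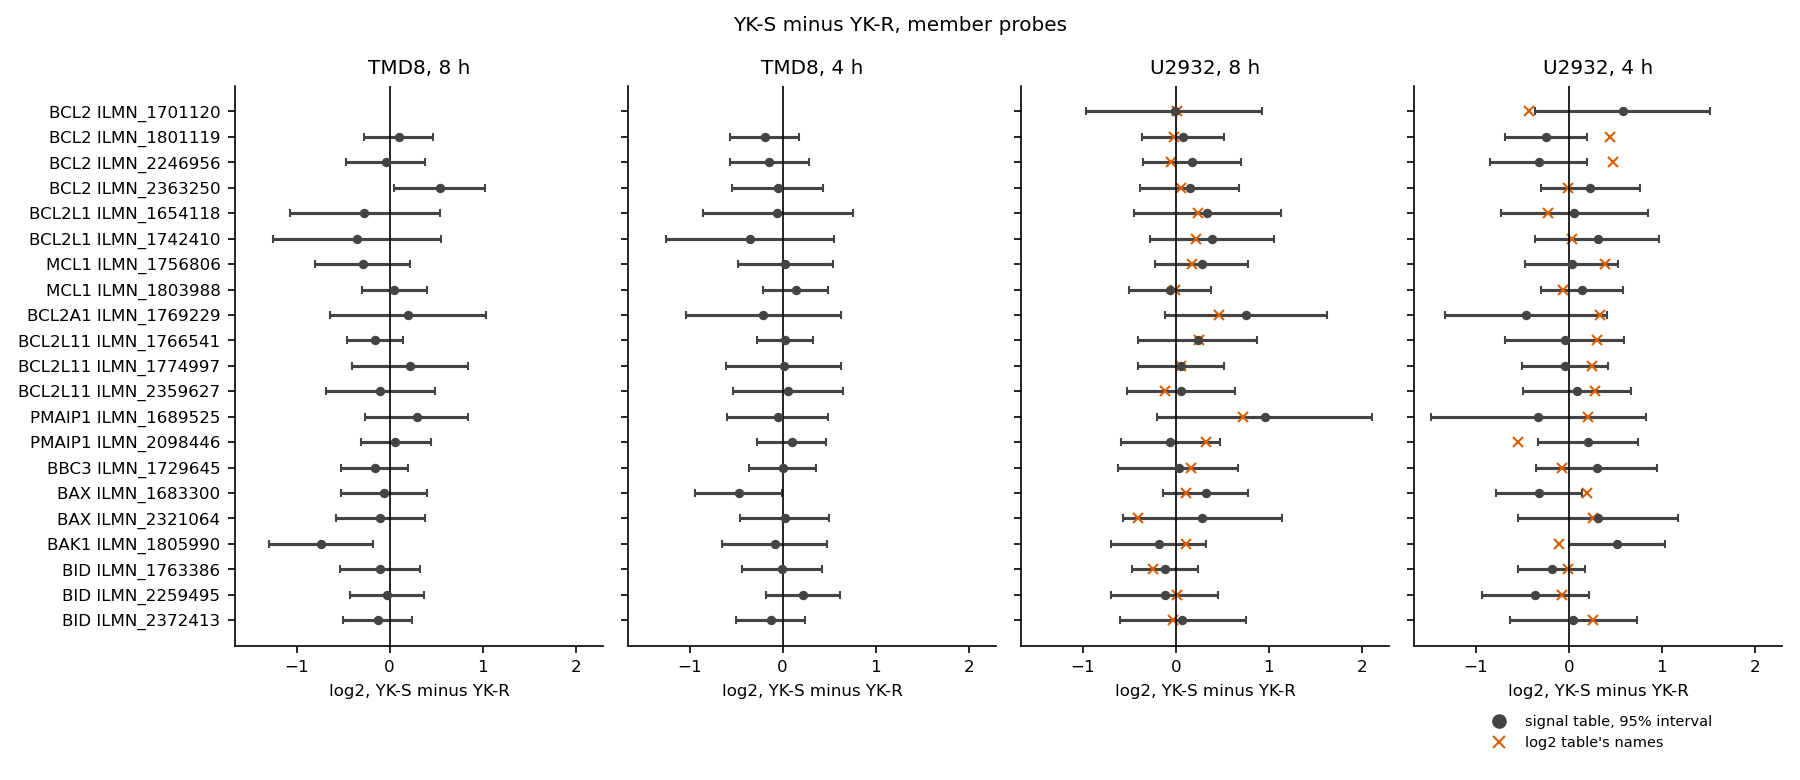
Log2 difference of each member probe, YK-S minus YK-R, in each line and at each time, 3 arrays a group. Dots with bars are limma estimates with 95% intervals from the signal table, and crosses are the U2932 differences under the log2 table's names. BAK1 in TMD8 at 8 h lies at -0.74, and at 4 h in U2932 many crosses lie on the other side of 0 from their dots.

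Treatment against DMSO could be tested in U2932 only. At 4 h, 2 of 21 member probes were called under YK-R, both of BCL2L11 and both higher, against 2.05% of all probes (426 of 20800), 1.07% higher. At unadjusted p under 0.05 were 8 member probes and 26.6% of all probes. ILMN_1766541 read 85.6, 78.7 and 78.4 intensity units under YK-R and 109.0, 71.6 and 64.4 in DMSO. In raw signal the groups overlapped, since DMSO replicate 1 was the brightest of the 6 arrays (mean signal 196.7). After normalisation the YK-R arrays read 6.19, 6.06 and 6.10 log2 units and the DMSO arrays 5.56, 4.32 and 4.42, with no overlap. How many of all probes separate these groups in the same way was not counted, so the separation is not shown to be particular to this probe. The difference was 1.35 ± 0.30 (SE, adjusted p = 0.038, limma). ILMN_1774997 read 5.79, 5.73 and 6.15 under YK-R and 5.19, 4.40 and 4.47 in DMSO, a difference of 1.20 ± 0.22 (adjusted p = 0.029, limma). Both exceeded background on 3 of 3 arrays with YK-R and 1 of 3 with DMSO. The BCL2L11 probe that was above background on all of them, ILMN_2359627, gave 0.83 ± 0.28 (adjusted p = 0.094, limma). All 6 arrays were dim, with 28.6% to 30.6% of probes above background under YK-R and 25.2% to 47.3% in DMSO, and the part of this in the result was not tested.

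The call did not survive the change of names. Under the log2 table's names, ILMN_1766541 averaged 6.93 ± 0.48 under YK-R and 7.06 ± 0.19 in DMSO (deposited log2 units, SD, n = 3 each), a difference of -0.13 (adjusted p = 0.70, limma). ILMN_1774997 averaged 6.85 ± 0.39 under YK-R and 6.88 ± 0.16 in DMSO, a difference of -0.03 (adjusted p = 0.94, limma). By those names 0 of 21 member probes were called, against 1.87% of all probes. Of the 21 member differences, 15 had the opposite sign under these names. The call was also lost without DMSO replicate 2, without YK-R replicate 2 or without YK-R replicate 3 (0 probes each). The count was 1 without YK-R replicate 1 (213 of all probes called), 4 without DMSO replicate 1 (2071) and 7 without DMSO replicate 3 (6935). BCL2A1 read 6.22, 6.95 and 6.90 under YK-R and 5.50, 5.12 and 4.94 in DMSO. The difference was 1.5 ± 0.42 (adjusted p = 0.058, limma), and 0.33 under the log2 table's names. BCL2L1 ILMN_1654118 read 8.09, 7.81 and 7.55 under YK-R and 9.05, 8.83 and 8.40 in DMSO. Its difference of -0.94 ± 0.38 was the lowest among the members (adjusted p = 0.14, limma) and was -0.63 under the log2 table's names. At neither of these probes did the groups overlap, but neither was called, and the share of all probes without overlap was not counted. BCL2 ILMN_1801119 gave 0.66 ± 0.21 (adjusted p = 0.081, limma) and -0.06 under those names.

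Under YK-S at 4 h no member was called (0 of 21 by limma, against 0% of all probes), and 6 were at unadjusted p under 0.05, as were 19.1% of all probes. BCL2L11 ILMN_1766541 read 6.13, 5.82 and 6.27 log2 units under YK-S against the DMSO values above, a difference of 1.30 ± 0.30 (adjusted p = 0.10, limma), and ILMN_1774997 gave 1.17 ± 0.22 (adjusted p = 0.10, limma). Under the log2 table's names these were 0.17 and 0.22. Thus the YK-S and YK-R arrays stood at similar BCL2L11 levels above the same 3 DMSO arrays, which both comparisons share. At 8 h no member was called under YK-S (0 of 21, 0% of all probes called; 1 at unadjusted p under 0.05, as were 2.17% of all probes) or under YK-R (0 of 21, 0% of all probes called; 0 at unadjusted p under 0.05, as were 0.202%). At that time BCL2L11 ILMN_1766541 averaged 5.50 ± 0.39 under YK-S, 5.26 ± 0.17 under YK-R and 5.49 ± 0.52 in DMSO (SD, n = 3 each). The interaction test called no member probe for a change of treatment effect between 4 h and 8 h. This held under YK-S and under YK-R (0 of 21 and 0% of all probes called in each). At unadjusted p under 0.05 were 4 member probes and 9.67% of all probes under YK-S. Under YK-R these were 9 member probes and 12.4% of all probes. Over the member probes the distance from an estimate to the bound of its interval had a median of 0.81 log2 in each test. A missed threshold therefore does not show that the treatment effects stayed the same over time.

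**Figure D4:**
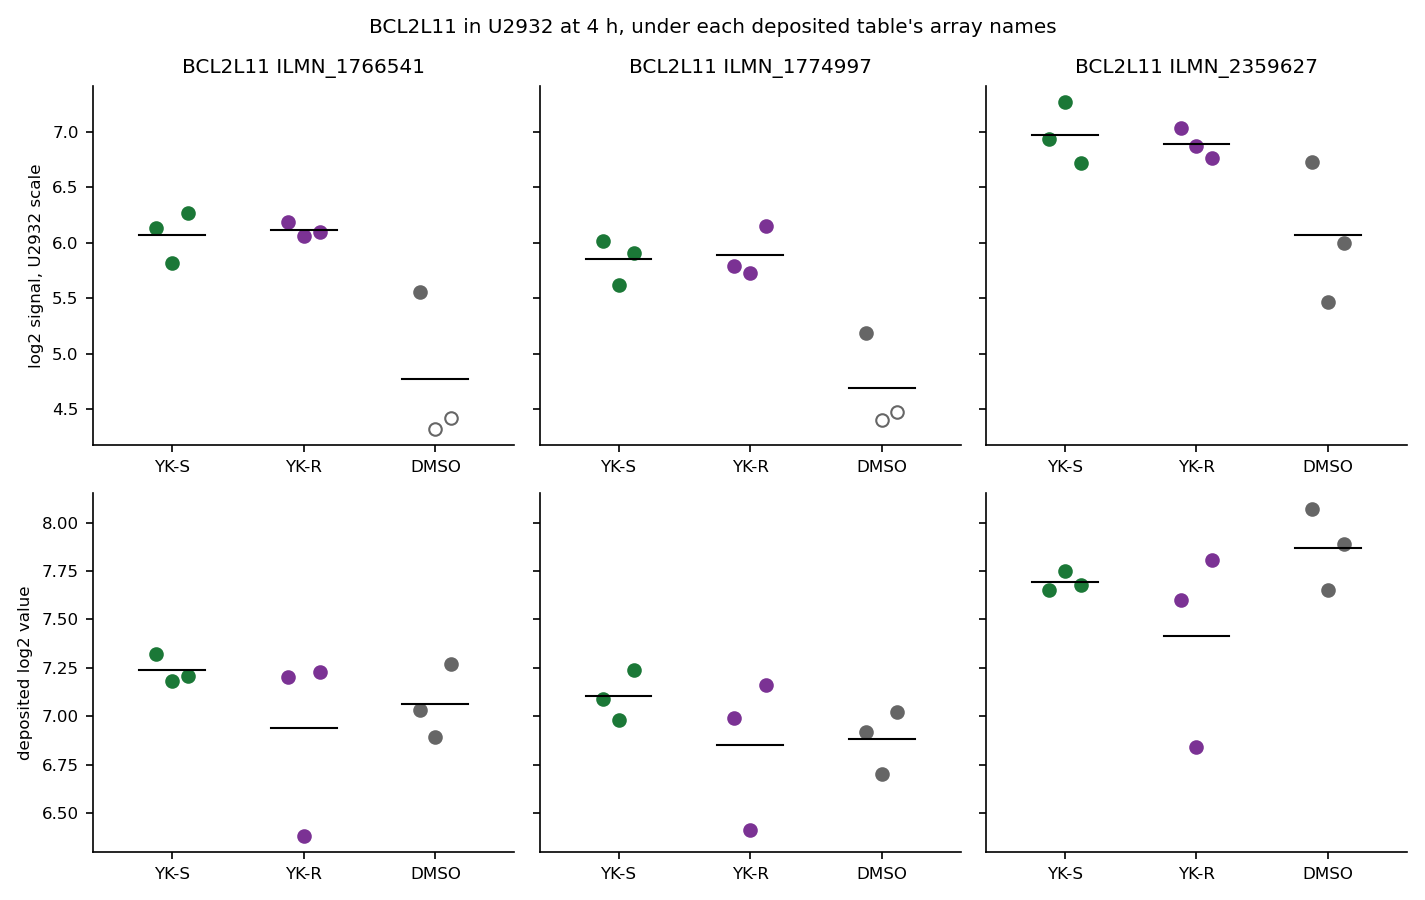
The 3 BCL2L11 probes in U2932 at 4 h under YK-S, YK-R and DMSO, 3 arrays each, with group means as bars. Upper panels show normalised log2 signals under the signal table's names, with open points not above background, and lower panels the deposited log2 values under their own names. At ILMN_1766541 the YK-R points lie between 6.06 and 6.19 above and between 6.38 and 7.23 below, where they overlap DMSO.

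With time, no member was called by limma in either line. In TMD8, 8 h was set against 4 h under YK-S (0 of 20, 1 at unadjusted p under 0.05 as were 5.46% of all probes, against 0.0338% called) and under YK-R (0 of 20, 4 at unadjusted p under 0.05 as were 9.98% of all probes, against 0.0802% called, 0.0717% higher and 0.00844% lower). The MCL1 probe ILMN_1756806 averaged 9.59 at 8 h and 9.04 at 4 h under YK-R (0.55, 95% interval 0.04 to 1.06, adjusted p = 0.46, limma), while ILMN_1803988 averaged 10.28 and 10.06. BCL2 ILMN_1801119 averaged 10.47 at 8 h and 10.04 at 4 h under YK-S (0.44, 0.06 to 0.81, adjusted p = 0.84, limma). In U2932 no member was called under YK-S (0 of 21, 4 at unadjusted p under 0.05), under YK-R (0 of 21, 8) or in DMSO (0 of 21, 3), with 0% of all probes called in each and 12.3%, 13.7% and 15.7% of all probes at unadjusted p under 0.05. BAK1 exceeded background on 3 of 3 arrays with YK-R at 8 h and on none at 4 h, but it was not called (adjusted p = 0.14, limma). Its bound from the group means was 1.33-fold higher at 8 h. The YK-R arrays and the DMSO arrays at 4 h were all dim, and at 8 h none of either was. Over U2932, BAK1 was above background on 2 of 8 dim arrays and on 10 of the 10 others. The part of brightness in these time differences was not tested. BCL2L11 ILMN_1774997 averaged 5.52 at 8 h and 4.69 at 4 h in DMSO (0.84, 0.38 to 1.30, adjusted p = 0.12, limma). Under the log2 table's names BCL2 ILMN_2363250 was called lower at 8 h than at 4 h in all 3 treatments, by -0.47 under YK-S, -0.54 under YK-R and -0.69 in DMSO, where the signal table's names gave -0.77, -0.69 and -0.29. BCL2 ILMN_1701120 (-0.82) and PMAIP1 ILMN_2098446 (-0.75) were also called lower at 8 h under YK-R by those names only. By those names 3.74% of all probes were called under YK-S, 5.52% under YK-R and 1.1% in DMSO.

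Other genes of the pathway were counted between the lines with the brightest probe of each gene, where 33.5% of 13124 named genes were higher and 27.6% lower in TMD8. Of 14 tested further relatives of BCL2, 6 were higher and 2 lower, with a median difference of 0.08 against 0.02 over all genes. BIK, a BH3-only protein, averaged 4.73 ± 0.27 log2 units in TMD8 and 9.5 ± 0.32 in U2932 (SD, n = 12 and 18 arrays), a difference of -4.77 ± 0.11 (SE). HRK, another BH3-only protein, was lower by -1.67 ± 0.20. The BIK and HRK probes were above background on 10 of 12 TMD8 arrays each. BCL2L2, the protective protein BCL-W, was higher by 0.84 ± 0.14, MOAP1, a BAX activator, by 0.75 ± 0.09 and BECN1, the autophagy protein that binds BCL2, by 0.62 ± 0.13.

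Of 15 tested genes of the machinery downstream of the mitochondrion, 4 were higher and 4 lower (median -0.05). APAF1, the apoptosome scaffold, was higher by 0.83 ± 0.16, CASP6 by 0.72 ± 0.17 and CASP9, the initiator caspase of the apoptosome, by 0.70 ± 0.17. BIRC2, an inhibitor of apoptosis protein, was lower by -1.16 ± 0.12 and ENDOG, a mitochondrial nuclease, by -0.94 ± 0.14, and with median scaling the last 2 turned to 0.41 and 0.29. Of 10 tested death receptor genes, 3 were higher and 4 lower (median 0.02). TNFRSF10A, a TRAIL receptor, was lower by -2.02 ± 0.12. TNFRSF1A, a TNF receptor, was above background on no TMD8 array and on 10 of 18 U2932 arrays, and was at least 1.14-fold lower in TMD8. CFLAR, the inhibitor of caspase-8 known as FLIP, was higher by 1.47 ± 0.12, TNFSF10, the death ligand TRAIL (above background on 3 of 18 U2932 arrays), by 0.98 ± 0.09 and CASP8 itself by 0.47 ± 0.14.

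Of 16 tested regulators of the members, 6 were higher and 4 lower (median 0.24). MYC was higher in TMD8 by 2.10 ± 0.23 and STAT3 by 1.92 ± 0.21. DDIT3 and FOXO3, transcription factors that can induce BCL2L11, were lower by -1.59 ± 0.15 and -1.38 ± 0.16, and ATF4, which can induce PMAIP1, by -1.24 ± 0.09. With median scaling FOXO3 and ATF4 stood at 0.04 and 0.14. In no comparison between treatments or times within a line was a gene of these lists called.

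**Figure D5:**
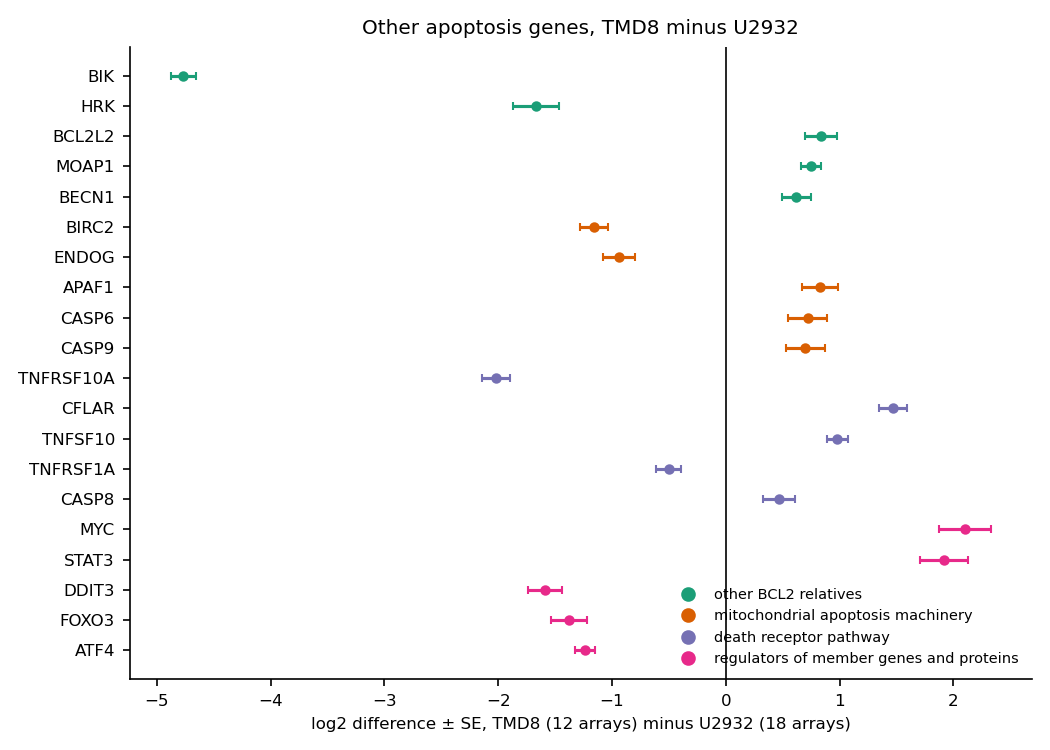
Log2 difference, TMD8 minus U2932, of the called genes with the largest differences in each list of other apoptosis genes (up to 5 a list), with standard errors from limma, over 12 and 18 arrays. BIK lies at -4.77 and MYC at 2.10, and TNFRSF1A was above background on no TMD8 array.

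The genes whose levels followed each member most closely were taken over the 30 arrays after each line's mean was subtracted, by Pearson's r, as a description. The arrays share brightness, so part of a likeness can follow it. The genes were picked on these same arrays, so the values within each line are no separate support. BCL2L1 was most like APBB1IP (0.87) and BCL3 (0.86), a nuclear IkB protein, with 0.82 and 0.88 in TMD8 and 0.92 and 0.87 in U2932. BAX was most like HDDC3 and RFXANK (0.83 each), with 0.89 and 0.84 in TMD8 and 0.82 and 0.83 in U2932. BCL2L11 was most like BHLHE40 (0.84) and DENND5B (0.81), with 0.51 and 0.56 in TMD8 and 0.92 and 0.87 in U2932. BCL2A1 was most like ATP13A3 (0.85) and ZNF226 (0.84), with 0.50 and 0.72 in TMD8 and 0.90 and 0.87 in U2932. BAK1 was most like KCNK4 (0.76) and LPGAT1 (0.73), with 0.88 and 0.84 in TMD8 and 0.73 and 0.71 in U2932. MCL1 was most like TANK (0.74) and NLRC5 (0.73), with 0.66 and 0.59 in TMD8 and 0.79 and 0.82 in U2932. For BBC3, SERINC4 (0.88) and KDM5B (0.86) stood first, with 0.41 and 0.18 in TMD8 and 0.93 and 0.90 in U2932. PMAIP1 (HCRTR2 at 0.80 and UBE2H at 0.79) and BCL2 (RPL19P12 and DCAF16 at 0.83 each) likewise had higher values in U2932 (0.88, 0.87, 0.92 and 0.92) than in TMD8 (0.45, 0.51, 0.57 and 0.57). BID was most like GJA1 (0.68) and TFRC (0.67), with 0.86 and 0.87 in TMD8 and 0.33 and 0.48 in U2932.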

How the data were processed

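Total RNA was measured on Illumina bead arrays, read with GenomeStudio per the submitters' processing notes (version not given in the sources used here). The deposited signal table holds linear intensity values, and nothing in them points to normalisation. A second deposited table holds log2 values, whose normalisation is not stated. Each line's columns share 1 distribution, with medians of 4.85 (TMD8) and 6.42 (U2932).

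The planned neqc correction needs detection p-values or control probes, so a stand-in was used, chosen after values had been seen. The background of each array was set at the mode of its log2 signals, followed by normexp correction, an offset of 16, quantile normalisation and log2. No detection p-values were used from the authors. A signal counted as detected, or above background, where the upper tail of a normal distribution with that mode and the spread of the signals below it was under 0.05. Probes detected on every array of some group were kept: 23702 in TMD8, 20800 in U2932 and 25382 over 30 arrays. Groups were compared with limma 3.58.1 (R 4.3.3), each line on its own and differences between lines over 30 arrays, at an adjusted p of 0.05. The comparison of the lines over all arrays was added later. The limma calls were tried on simulated log2 values, with an outcome not given here. The background step and the rule for detection were not part of that simulation. The members, lists, comparisons and the fit by line were chosen with earlier results of these data known. Every member probe is named; of the lists, up to 5 called genes with the largest differences; and for each member the 2 most alike genes. Alternatives were plain normexp with an offset of 50, no background correction, median scaling, a fit of all 30 arrays, 2 other filters, the brightest probe per gene, array weights, a trended robust fit, the deposited log2 values, no dim arrays, and each array left out. One symbol was annotated for 30113 probes, several for 8 and none for 17110.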

Additional observations from a re-analysis of the deposited data

How the results depend on the processing

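Over 68 called log2 differences of member probes, 1356 alternative values were computed. Of these 1312 kept direction and call, 38 kept the direction but missed the threshold and 6 reversed. The pooled count is weighted to the comparison of the lines over all arrays, where 30 alternatives for each value left out a single array. The only differences called within a line, those of BCL2L11 under YK-R at 4 h in U2932, held less often. ILMN_1766541 kept direction and call in 5 of 14 alternatives and ILMN_1774997 in 7 of 14. For BCL2L11 under YK-R against DMSO at 4 h in U2932, the log2 table's names reversed ILMN_1766541 (-0.13) and ILMN_1774997 (-0.03). For TMD8 against U2932 under YK-R at 4 h, median scaling reversed BCL2 ILMN_1801119 (0.08) and ILMN_2246956 (0.01) and MCL1 ILMN_1803988 (0.33) and ILMN_1756806 (0.63). The cause was not tested.

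Counts of called member probes moved as follows. For YK-R against DMSO at 4 h in U2932 the 2 probes became 0 with plain normexp, no background correction, median scaling, the strict filter (12 tested), the brightest probe per gene or the log2 table's names, 1 with no filter (0.631%), 6 with all 30 arrays fitted (16.3% of all probes called) and 12 with array weights (41%), and 0 to 7 with single arrays left out. For YK-S against DMSO at 4 h the 0 became 3 with all 30 arrays fitted (7% of all probes), 15 with array weights (57.8%), and 0 to 5 with single arrays left out, of which DMSO replicate 1 gave 3 (with 1452 of all probes called) and DMSO replicate 3 gave 5 (with 4451). Under YK-R, DMSO replicate 1 gave 4 (with 2071) and DMSO replicate 3 gave 7 (with 6935). For YK-S against YK-R, array weights gave 1 in U2932 at 4 h (6.1%), and leaving out single arrays gave 0 to 1 in TMD8 at 8 h. For 8 h against 4 h in U2932, DMSO gave 10 with median scaling (44.9%), 1 with all 30 arrays (4.89%), 10 with array weights (40.2%) and 1 with the log2 table's names (1.1%). Leaving out single arrays gave 0 to 2 in DMSO, the highest without DMSO 4 h replicate 1 (1099 of all probes called). There YK-S gave 10 with array weights (29.9%) and 1 with the log2 table's names (3.74%), and YK-R gave 10, 1, 11 and 3 with median scaling (59.9%), all 30 arrays (2.9%), array weights (19.8%) and the log2 table's names (5.52%). For the change of the treatment effect with time, YK-S gave 7 with array weights (23.6%), and YK-R gave 9 with array weights (21.2%) and 2 with all 30 arrays (1.03%). Each gave 0 to 2 with single arrays left out. The 2 without DMSO 4 h replicate 1 came with 124 of all probes called under YK-S and 224 under YK-R. Between the lines, the brightest probe per gene (10 tested) gave 4 under YK-S at 8 h (24.1%), 6 under YK-R at 8 h (27.9%), 6 under YK-S at 4 h (29.5%), 6 under YK-R at 4 h (34%) and 8 over all arrays (54.9%), where the strict filter gave 11 of 12 (72%). Fewer probes were tested there. The array weight fit did not fully converge in some runs. Without dim arrays, comparisons with DMSO or YK-R at 4 h in U2932 could not be run. Between the lines 18 of 21 member probes were then called, BCL2A1 among them, against 8392 higher and 9171 lower of all 26262 probes. No paired analysis was possible because the labels give no replicate numbers; those used here follow accession order and only name the arrays. The number of arrays, and signals near background in the dim U2932 arrays, limit precision.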

Other observations

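PMAIP1 and BCL2 both lie on chromosome 18, and after their values had been seen the genes that lie between them in the RefSeq gene table were read as well. The members chose the stretch and are left out of its count: of the 7 other tested genes, 5 were lower in TMD8 than in U2932 and 0 higher, with a median log2 difference of -0.94. Over the 187 tested genes of chromosome 18, 64 were lower and 87 higher, with a median of 0.17, and over all 13124 named genes 3623 were lower and 4395 higher. Beside PMAIP1 (-3.19) and BCL2 (-2.13), PIGN, which acts in the synthesis of glycosylphosphatidylinositol anchors, averaged 7.53 log2 units in TMD8 and 10.42 in U2932, a difference of -2.89 ± 0.08 (SE). PHLPP1, a phosphatase that acts on AKT, averaged 5.2 in TMD8 and 8.06 in U2932 (-2.86 ± 0.14). RELCH gave -1.93 ± 0.08, TNFRSF11A, the receptor RANK, -0.94 ± 0.16, and ZCCHC2, above background on 4 of 12 TMD8 arrays, -0.79 ± 0.15. RNF152 (-0.03, adjusted p = 0.87, limma) and CDH20 (0.20, adjusted p = 0.24, limma) were not called. With median scaling PIGN stood at -1.38 and PHLPP1 at -1.95, and RELCH at -0.39 was no longer called (adjusted p = 0.26, limma). The stretch was noticed in these data, so the values are a description with no test.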
